A study of Rattus norvegicus with 18 samples.

Results

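Transcripts of 10 genes through which fibroblasts signal to other cells were followed in 18 RNA-seq libraries of rat fibroblasts. They are the cytokines Lif, Il6 and Csf1, the chemokines Ccl2, Ccl7, Ccl20, Cxcl1, Cxcl12 and Cx3cl1, and the receptor gene Il1rl1, and they were chosen by name from the 13188 genes of the deposited table. All 10 of the 10 names were found there. Il1rl1 encodes ST2, the receptor of IL-33. It is not itself a cytokine, although a soluble form is secreted, and gene-level values do not tell the soluble form from the membrane form.

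The cells are HO15.19, a Rat1-derived fibroblast line in which both copies of the endogenous Myc gene are disrupted. It is a single line, so its groups are cultures of the same cells, and the labels do not say whether the cultures were grown on separate days. The p-values therefore measure the spread between these cultures, which may be technical. The 6 groups of 3 cultures were myc-/- and myc-/- siCtrl without MYC, myc-/- + MYC and myc-/- + MYC siCtrl with it, and the knockdown groups myc-/- + MYC siAHR-5 and myc-/- + MYC siAHR-2. "+ MYC" marks cells that carry human MYC from a stably integrated viral vector, which is not under the control of the cells' own Myc promoter. The siRNAs, a control (siCtrl) and a pair directed against the aryl hydrocarbon receptor AHR, were used at 40 nM for 48 h, and the labels give medium with 10% serum for all cells, where the study's methods give another serum level for Rat1 cells. Knockdown was made only in cells with MYC.

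LIF and IL-6 belong to a cytokine family whose receptors share the signalling chain gp130 (gene Il6st), which activates JAK kinases and the transcription factor STAT3. CSF1 is the survival factor of macrophages. Chemokines draw cells along a gradient: CCL2 and CCL7 attract monocytes, CCL20 attracts lymphocytes and dendritic cells through CCR6, CXCL1 attracts neutrophils, CXCL12 retains and guides CXCR4-bearing cells, and CX3CL1 is a membrane-tethered chemokine. In fibroblasts many of these genes are induced by inflammatory stimuli through NF-kB and C/EBP transcription factors, whereas CXCL12 is made constitutively by stromal cells.

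The libraries lay on 2 separate scales. The myc-/- siCtrl and myc-/- + MYC libraries formed a set of 6 libraries (the smaller set), with a median value of at most 11.05 in any library, and the other 4 groups formed a set of 12 (the larger set), with a median of at least 11.61. Levels were therefore compared only within a set, and the effect of MYC was read once in each: in the smaller set as myc-/- + MYC minus myc-/- siCtrl, and in the larger set as myc-/- + MYC siCtrl minus myc-/-. Within either set the transfection label changes together with MYC, so that the transfection and MYC cannot be told apart. The labels were used as given, and whether they name the transfected groups correctly could not be checked here. In these bulk samples, fewer cells of a kind and less RNA per cell cannot be told apart either. Values are normalized log2 values with no length correction, so levels are compared between groups for a gene and not between genes.

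Of the fibroblast markers, 9 of 9 were in the table. Vim lay between 18.32 and 18.57 in the smaller set and between 18.95 and 19.70 in the larger set. Col1a2, which most fibroblasts make together with Col1a1, lay between 3.95 and 4.13 and between 3.64 and 3.95. How much RNA such values stand for is unknown. In both sets 4 of the 9 fell with MYC, as 8.91% of all genes did: Col1a1 (log2FC −1.73 and −5.95), Pdgfrb (−1.72 and −3.08), Fn1 (−1.76 and −1.80) and Thy1 (−1.15 and −2.20), with the smaller set first. The list did not move one way in the smaller set, where its median log2FC was −0.13 against −0.61 in the larger. There Col3a1, another fibrillar collagen, rose (log2FC 1.30), and Pdgfra (0.25), S100a4 (0.17) and Vim (0.13) were higher at an adjusted p of at most 0.05 by limma but short of the fold cutoff. In the larger set Pdgfra fell (−0.61), and Col3a1 (−0.08), S100a4 (−0.37) and Vim (−0.17) did not reach the fold cutoff. Ahr, the target of the siRNAs, was lower with siAHR-2 (log2FC −1.29, limma adjusted p = 2.37e-04) and with siAHR-5 (log2FC −1.39, adjusted p = 2.16e-04) than with siCtrl. Rat Myc still gave signal in every group, with a group mean between 8.05 and 10.89, and it was lower with human MYC in both sets (log2FC −1.26 and −2.68).

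With MYC, transcripts of this group of signals were lower. The genes were chosen with earlier results of these data known. Their counts therefore describe these genes and do not test cytokines and chemokines at large. In the smaller set, 10 of the 10 genes fell past both cutoffs (a change of at least 1.5-fold and an adjusted p of at most 0.01), against 14.3% of all genes, and their median log2FC was −1.93 where that of all genes was 0.00. In the larger set, 9 of the 10 fell and 0 rose, against 14.7% of all genes lower, with a median log2FC of −2.51 where that of all genes was again 0.00. The gene that did not pass was Lif. The same 9 genes passed lower in both sets, as 8.91% of all genes did. The groups did not overlap, with every MYC culture the lower, for 10 of 10 genes in the smaller set and for 9 of 10 in the larger set, which was the case for 40.9% and 36.7% of all genes. The plot of the values by library shows the 9 genes stepping down with MYC on both sides of the dotted line and Lif stepping down on only one side. Among 20 other chemokines in the table, 6 fell past the cutoffs in the smaller set and 0 rose. In the larger set, where several of them lay at or near their lowest value, 0 of the 20 fell and 1 rose.

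**Figure D1:**
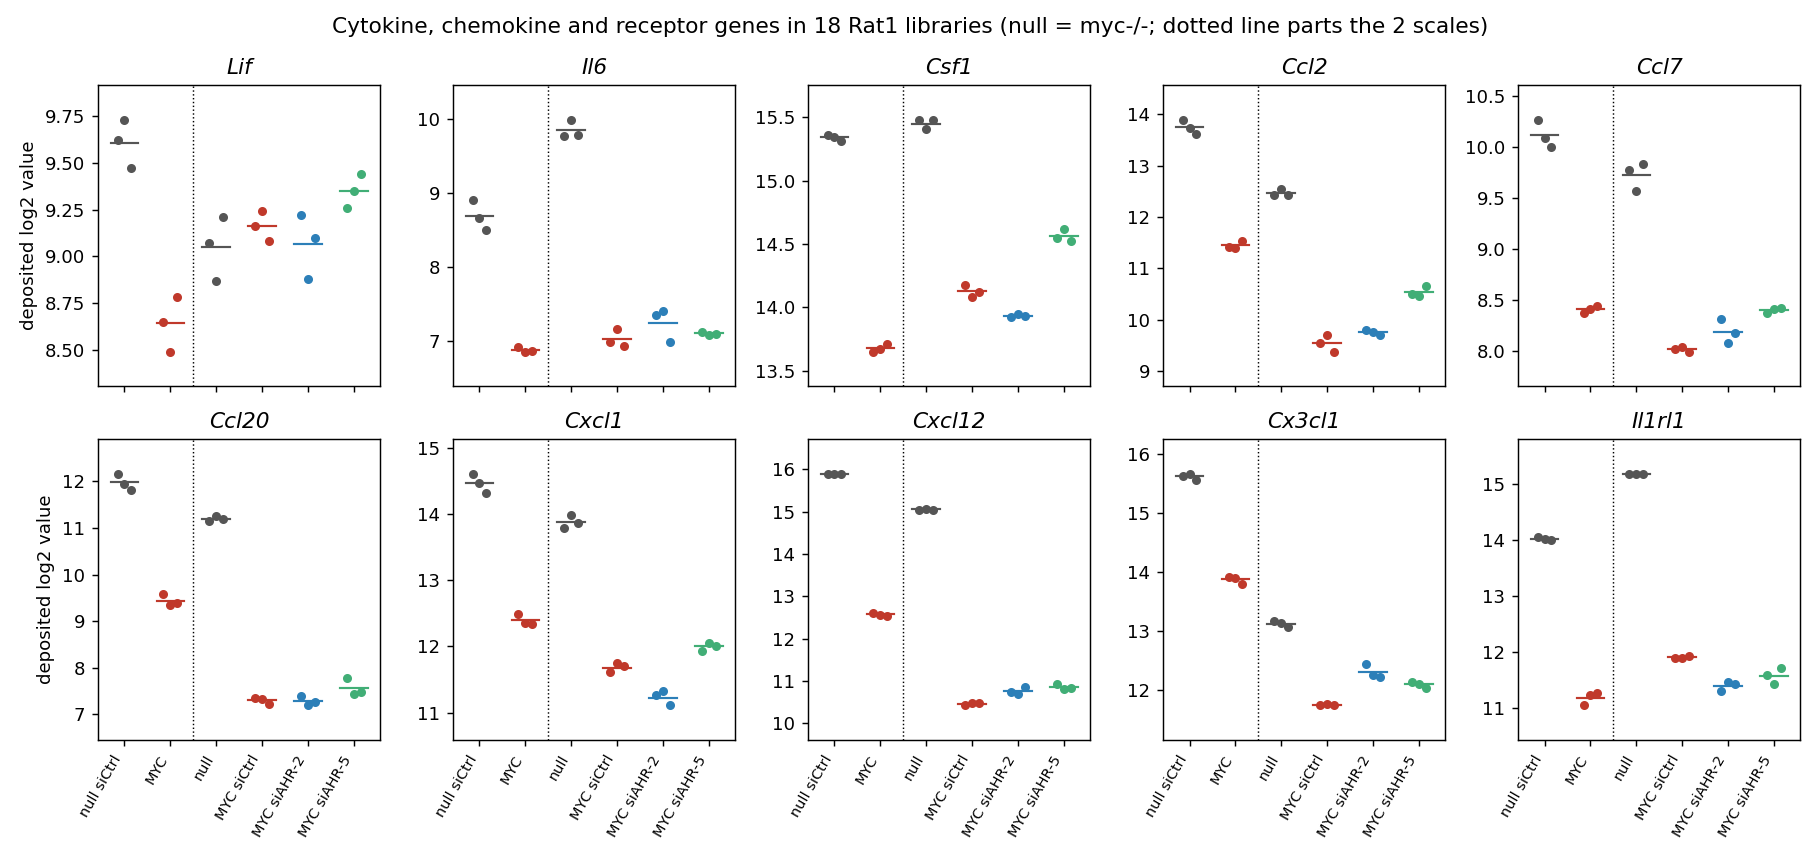
Deposited log2 value of each of the 10 genes in each of the 18 libraries (points, 3 per group) with the group mean (line). Each panel has its own vertical axis, and values to the left of the dotted line (the smaller set) and to the right of it (the larger set) are on separate scales. In the larger set, Lif was between 8.87 and 9.21 in myc-/- cells and between 9.08 and 9.24 in myc-/- + MYC siCtrl cells, whereas Cxcl12 went from between 15.05 and 15.07 to between 10.42 and 10.49.

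Lif, a cytokine that keeps embryonic stem cells undifferentiated and acts on many tissues, was measured at 9.62, 9.73 and 9.47 in the myc-/- siCtrl cultures and at 8.65, 8.49 and 8.78 in the myc-/- + MYC cultures. The groups did not overlap, and the log2FC was −0.96 (standard error, SE, 0.0871, adjusted p = 1.22e-06 by limma), or 1.95-fold lower with MYC. It was the smallest of the 10 changes in that set. The myc-/- cultures of the larger set gave 9.07, 8.87 and 9.21 and the myc-/- + MYC siCtrl cultures 9.16, 9.24 and 9.08. Here the ranges overlapped, and the log2FC was 0.11 with a 95% confidence interval from −0.14 to 0.36 (adjusted p = 0.376). That interval holds no decrease as large as the one in the smaller set.

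Il6, the founding gp130 cytokine and a mediator of the acute phase response, read 8.90, 8.66 and 8.50 in myc-/- siCtrl cells and 6.92, 6.85 and 6.86 in myc-/- + MYC cells. Its values in the larger set were 9.77, 9.99 and 9.78 in myc-/- cells and 6.98, 7.16 and 6.93 in myc-/- + MYC siCtrl cells. Every MYC culture lay below every myc-/- culture in both sets. The log2FC was −1.81 (SE 0.0922, adjusted p = 8.57e-09 by limma) in the smaller set and −2.82 (SE 0.0948, adjusted p = 2.98e-06) in the larger set, or 3.50-fold and 7.06-fold lower. The lowest value of any of the 10 genes, 6.85, was that of Il6 with MYC. Since the floor of the deposited scale differs from gene to gene, how much RNA such a value stands for is unknown.

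Csf1 varied little between the cultures of a group. It read 15.36, 15.34 and 15.31 in myc-/- siCtrl cells against 13.65, 13.67 and 13.71 with MYC, and 15.48, 15.41 and 15.48 in myc-/- cells against 14.18, 14.08 and 14.12 in myc-/- + MYC siCtrl cells. The decreases of −1.66 (SE 0.0283, adjusted p = 1.59e-12 by limma) and −1.33 (SE 0.0376, adjusted p = 1.63e-06) on the log2FC scale were many times the spread between cultures. They correspond to 3.15-fold and 2.51-fold lower values.

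Promoter sequence is shown for the inflammatory members that fell in both sets, because many such genes carry kappaB elements, the sites that NF-kB binds. RefSeq promoters (GRCr8, 250 bases before to 50 after the start site) were matched by symbol for 7 of the 10 genes, namely Il6, Ccl7, Ccl20, Cxcl1, Cxcl12, Cx3cl1 and Il1rl1. The kappaB consensus, searched on both strands, had a match in 4 of these 7 windows, where 7.51% of all 33469 promoter windows of the same length held one. The 120 bases before the start site are printed 5′ to 3′ on the strand of the gene, with kappaB matches in capitals, for those 4 genes and for Cxcl12, which had the largest decrease and no match.
Il6, chr4:5894576-5894695, minus strand: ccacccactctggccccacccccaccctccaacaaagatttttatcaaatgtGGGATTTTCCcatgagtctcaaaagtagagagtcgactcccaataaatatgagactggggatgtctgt
Ccl7, chr10:67513975-67514094, plus strand: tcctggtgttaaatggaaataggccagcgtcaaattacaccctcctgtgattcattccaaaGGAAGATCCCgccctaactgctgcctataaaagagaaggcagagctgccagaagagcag
Ccl20, chr9:91837039-91837158, plus strand: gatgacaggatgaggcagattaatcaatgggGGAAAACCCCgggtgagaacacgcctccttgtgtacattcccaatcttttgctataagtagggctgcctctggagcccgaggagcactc
Cxcl1, chr14:17479322-17479441, minus strand: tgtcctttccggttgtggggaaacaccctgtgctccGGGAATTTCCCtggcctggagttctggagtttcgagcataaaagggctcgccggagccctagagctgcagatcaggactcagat
Cxcl12, chr4:152060661-152060780, plus strand: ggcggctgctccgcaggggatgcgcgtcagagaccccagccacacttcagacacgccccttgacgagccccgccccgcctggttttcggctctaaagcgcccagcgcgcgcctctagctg
In Il6 the match GGGATTTTCC runs from −68 to −59 relative to the start site. The Ccl20 match GGAAAACCCC, on the opposite strand, runs from −89 to −80, and that of Ccl7, GGAAGATCCC, also on the opposite strand, runs from −59 to −50. Cxcl1 holds 2 overlapping matches, GGGAATTTCC from −84 to −75 and, on the opposite strand, GGAATTTCCC from −83 to −74. The windows of Cxcl12, Cx3cl1 and Il1rl1 held no match to these letters.

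Other motifs were searched in the same way. The MYC E-box CACGTG was in 0 of the 7 windows, against 6.42% of all windows, and the AP-1 motif TGANTCA was in 1 of 7, that of Ccl7 (TGATTCA, −73 to −67), against 7.33%. The core of the AHR element, GCGTG, was in 3 of 7 windows, those of Ccl20, Cxcl12 and Cx3cl1, against 29.7% of all windows, and as a short motif it occurs often by its length alone. None of these motifs overlapped a kappaB match. A match describes the letters only and does not show that a factor binds there.

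Among the CC chemokines, Ccl2, the main monocyte attractant made by fibroblasts, read 13.89, 13.73 and 13.61 in myc-/- siCtrl cells and 11.42, 11.39 and 11.54 in myc-/- + MYC cells. The larger set gave 12.43, 12.55 and 12.42 without MYC and 9.55, 9.70 and 9.38 in myc-/- + MYC siCtrl cells. The groups were far apart in both sets, with a log2FC of −2.29 (SE 0.0655, adjusted p = 7.18e-11 by limma) and of −2.92 (SE 0.0888, adjusted p = 2.05e-06), or 4.91-fold and 7.58-fold lower. Ccl7, whose gene lies next to Ccl2 with 0 protein-coding genes between them in the GRCr8 gene order, also fell. Its values went from between 10.00 and 10.27 to between 8.37 and 8.44 in the smaller set and from between 9.57 and 9.83 to between 7.99 and 8.04 in the larger set, and the log2FC was −1.71 in each set (SE 0.0719 and 0.0807, adjusted p = 1.69e-09 and 1.09e-05).

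Ccl20 had one of the larger changes. It read 12.17, 11.94 and 11.82 in myc-/- siCtrl cells against 9.58, 9.35 and 9.39 with MYC, and 11.15, 11.26 and 11.20 in myc-/- cells against 7.34, 7.33 and 7.23 in myc-/- + MYC siCtrl cells. The log2FC of −2.54 (SE 0.0874, adjusted p = 3.33e-10 by limma) in the smaller set corresponds to 5.81-fold lower values. The log2FC in the larger set was −3.90 (SE 0.0585, adjusted p = 1.93e-07), or 15.0-fold lower, and ranked number 62 of 13188 genes from the lowest log2FC.

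Cxcl12, the stromal ligand of CXCR4, showed the largest decrease of the 10 genes in both sets. Its 3 cultures read 15.90, 15.90 and 15.88 in myc-/- siCtrl cells and 12.61, 12.56 and 12.54 in myc-/- + MYC cells, and 15.05, 15.07 and 15.05 in myc-/- cells and 10.42, 10.49 and 10.48 in myc-/- + MYC siCtrl cells. The log2FC of −3.32 (SE 0.0290, adjusted p = 1.76e-14 by limma) is a 10.0-fold decrease, and that of −4.59 (SE 0.0312, adjusted p = 4.30e-08) is a 24.1-fold decrease. Ranked from the lowest log2FC, Cxcl12 was number 62 of 13188 genes in the smaller set and number 33 in the larger set.

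Cxcl1, a neutrophil attractant, went from 14.61, 14.46 and 14.31 to 12.49, 12.36 and 12.34 in the smaller set and from 13.79, 13.98 and 13.87 to 11.61, 11.75 and 11.70 in the larger set. Its log2FC was −2.06 (SE 0.0673, adjusted p = 2.15e-10 by limma) and −2.19 (SE 0.0606, adjusted p = 1.51e-06). Cx3cl1, the membrane-bound chemokine, went from between 15.56 and 15.67 to between 13.80 and 13.91 in the smaller set and from between 13.06 and 13.16 to between 11.73 and 11.76 in the larger set. Its decreases were smaller, with a log2FC of −1.75 (SE 0.0384, adjusted p = 1.02e-11) and −1.38 (SE 0.0363, adjusted p = 1.29e-06).

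Il1rl1, the IL-33 receptor, read 14.05, 14.02 and 14.01 in myc-/- siCtrl cells and 11.05, 11.23 and 11.28 in myc-/- + MYC cells. The 3 myc-/- cultures of the larger set all read 15.19, and the myc-/- + MYC siCtrl cultures read 11.90, 11.90 and 11.93. The log2FC was −2.84 (SE 0.0531, adjusted p = 2.95e-12 by limma) and −3.28 (SE 0.0230, adjusted p = 4.30e-08), or 7.18-fold and 9.70-fold lower. Its ligand gene Il33, which encodes an alarmin stored in the nucleus, fell as well (log2FC −1.68 and −0.76), while its co-receptor gene Il1rap had a log2FC of −0.42 and −0.55, below the fold cutoff in both sets, although the latter was −0.64 and passed without replicate 2 of myc-/-. Il33 read between 5.89 and 5.94 in the myc-/- + MYC siCtrl cultures, near its lowest value of 5.88, which limits the decrease that can be measured there.

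**Figure D2:**
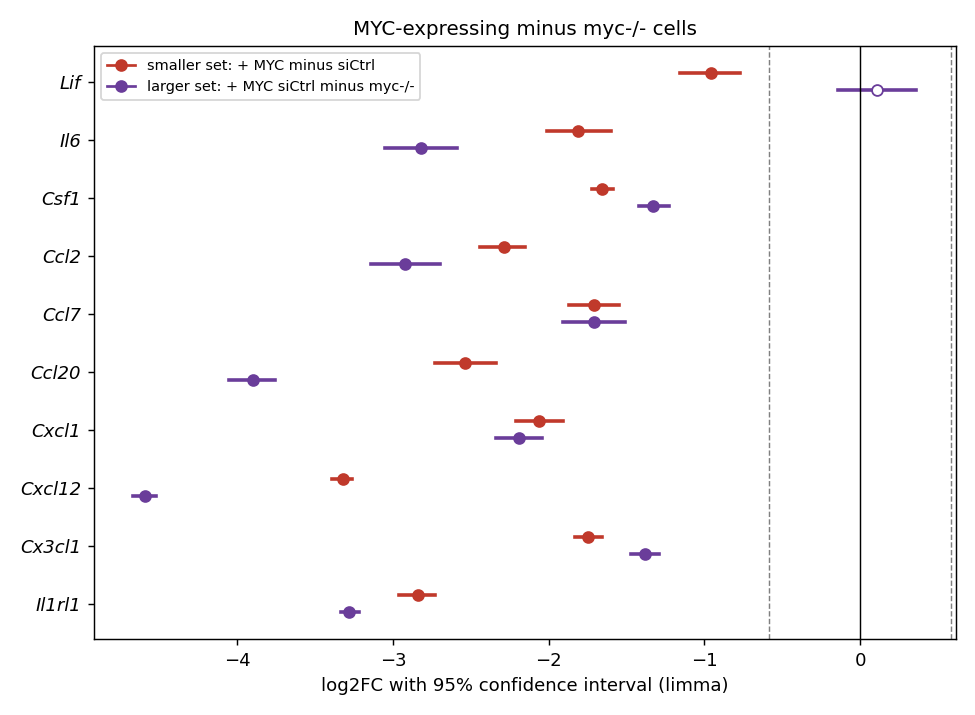
Log2FC of MYC-expressing minus myc-/- cells for each of the 10 genes (points) with the 95% confidence interval (bars), in the smaller set (red) and the larger set (purple). Filled points passed both cutoffs, open points did not, and dashed lines mark the 1.5-fold cutoff in either direction. All points lie to the left of the lower line except that of Lif in the larger set, at 0.11.

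The size of the MYC effect was compared between the sets by testing the difference of the 2 log2FC, each formed on its own scale. In this test 5 of the 10 genes passed both cutoffs, against 16.5% of all genes, and 8 of 10 had an adjusted p of at most 0.05, against 54.9%. The decrease was larger in the larger set for Ccl20 (difference −1.37, SE 0.120, limma adjusted p = 1.96e-07), Cxcl12 (−1.27, SE 0.0489, adjusted p = 2.16e-11), Il6 (−1.01, SE 0.139, adjusted p = 2.10e-05) and Ccl2 (−0.63, SE 0.115, adjusted p = 2.93e-04). For Ccl2 the difference fell short of the fold cutoff after median centring (−0.54), after quantile normalization (−0.34, adjusted p = 0.0139) and when any of 3 libraries was left out, namely replicate 3 of myc-/- + MYC siCtrl (−0.55), of myc-/- siCtrl (−0.56) or of myc-/- + MYC (−0.58). Lif was the only one of the 5 that differed the other way (1.07, SE 0.138, adjusted p = 1.11e-05), having passed the cutoffs in the smaller set and not in the larger.

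For Ccl7 the difference was 0.00 with a 95% confidence interval from −0.24 to 0.24, although after quantile normalization it was 0.41 (adjusted p = 0.00695), and for Cxcl1 it was −0.13 with an interval from −0.35 to 0.08. Csf1 (0.33), Cx3cl1 (0.37) and Il1rl1 (−0.43) differed by less than the fold cutoff. The sets differ in scale, in which group was transfected and in cultures, and the part of each in these differences was not tested.

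Some markers of fibroblasts and of other cell types moved with MYC as well. Of 8 leukocyte and macrophage markers 6 were in the table, with Ptprc (CD45) between 2.84 and 4.65 and Itgam between 1.99 and 2.73 in the 18 libraries. The summed level of the 6, as the log2 of summed values, was between 9.86 and 9.95 in myc-/- siCtrl cells and between 8.81 and 8.92 in myc-/- + MYC cells, and in the larger set between 8.78 and 8.88 in myc-/- cells and between 8.31 and 8.46 in myc-/- + MYC siCtrl cells. The summed level of the 9 fibroblast markers went from between 20.82 and 20.83 to between 19.90 and 19.99 in the smaller set and from between 21.95 and 22.18 to between 20.23 and 20.25 in the larger set. Both sums were thus lower with MYC, as the members were, but single markers moved otherwise. In the smaller set the fibroblast sum was lower although 4 of the 9 markers named above were higher. Among the 6 leukocyte and macrophage markers, the gene past the cutoffs in both sets was the T-cell gene Cd3e (log2FC −2.09 and −1.13), while the macrophage marker Cd68 had a log2FC of 0.35 (limma adjusted p = 0.00185) and 0.27 (adjusted p = 0.0910). Of 4 epithelial markers 3 were in the table. Their sum moved the opposite way, from between 6.43 and 6.55 to between 7.87 and 7.97 and from between 7.73 and 7.89 to between 8.75 and 9.09, with Krt8 past the cutoffs (log2FC 1.70 and 1.17) and Epcam between 1.22 and 2.42 throughout. The 4 endothelial markers summed to between 8.09 and 8.20 without and 8.44 and 8.53 with MYC in the smaller set, and to between 9.28 and 9.43 and between 9.51 and 9.63 in the larger set. Of the 4, Tek passed the cutoffs in the smaller set (log2FC 1.61), from between 5.63 and 5.65 to between 7.18 and 7.39. Cdh5 was lower there (log2FC −0.54), short of the fold cutoff, and 0 of the 4 passed in the larger set. The cultures are of a single fibroblast line, and no other cell type is named for them. How the markers' changes relate to those of the members was not tested.

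The AHR knockdown asks whether the levels in MYC-expressing cells depend on AHR. Both AHR comparisons use the same 3 myc-/- + MYC siCtrl libraries, which are also the MYC arm of the larger set. With siAHR-2, 0 of the 10 genes passed the cutoffs by limma, where 0.470% of all genes did, and 6 of the 10 had an unadjusted p under 0.05, as 40.4% of all genes did. At an adjusted p of at most 0.05 with no fold cutoff, 5 of the 10 differed, 3 lower (Csf1, Cxcl1 and Il1rl1) and 2 higher (Cxcl12 and Cx3cl1), against 29.3% of all genes in either direction. With siAHR-5, 1 of 10 passed the cutoffs, against 2.32% of all genes, and 7 differed at an adjusted p of at most 0.05, against 39.2%. Those were Il1rl1, which was lower, and Csf1, Ccl2, Ccl7, Cxcl1, Cxcl12 and Cx3cl1, which were higher. The call on Il1rl1 was lost without replicate 2 or replicate 3 of myc-/- + MYC siCtrl (highest adjusted p 0.0546).

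Ccl2 was the gene past the cutoffs with siAHR-5. Its 3 siCtrl cultures read 9.55, 9.70 and 9.38, the siAHR-5 cultures 10.51, 10.47 and 10.66, and the siAHR-2 cultures 9.81, 9.76 and 9.70. All siAHR-5 values lay above all siCtrl values, with a log2FC of 1.00 (SE 0.0957, adjusted p = 0.00104 by limma) or 2.01-fold higher, which was the 15th highest of 13188 genes (rank 15). With siAHR-2 the log2FC was 0.21 with a 95% confidence interval from 0.00 to 0.43 (adjusted p = 0.129). In a fit with the replicate number as a block, the siAHR-5 change had the same log2FC but did not pass (limma adjusted p = 0.0103). The siAHR-5 level remained below the 12.42 to 12.55 of myc-/- cells in the same set.

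Cx3cl1 was the gene nearest to the cutoffs with siAHR-2. It read 11.73, 11.76 and 11.73 with siCtrl, 12.43, 12.25 and 12.22 with siAHR-2, and 12.13, 12.10 and 12.03 with siAHR-5. Neither knockdown group overlapped the control, and the log2FC was 0.56 with siAHR-2 (SE 0.0585, adjusted p = 0.00241 by limma), just under the fold cutoff, and 0.35 with siAHR-5 (SE 0.0338, adjusted p = 0.00109). Without replicate 3 of siAHR-2 it was 0.60 (adjusted p = 0.00872) and passed.

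Cxcl12 and Il1rl1 also had the same direction with both siRNAs. Cxcl12 read 10.42, 10.49 and 10.48 with siCtrl, 10.73, 10.70 and 10.86 with siAHR-2 and 10.92, 10.82 and 10.83 with siAHR-5, a log2FC of 0.30 (limma adjusted p = 0.0115) and 0.39 (adjusted p = 0.00154). These are small beside its log2FC of −4.59 with MYC in the same set. Il1rl1 read 11.90, 11.90 and 11.93 with siCtrl, 11.30, 11.47 and 11.43 with siAHR-2 and 11.59, 11.43 and 11.71 with siAHR-5. Its log2FC was −0.51 (limma adjusted p = 0.00200) and −0.34 (adjusted p = 0.0156), so that it was lower still than in myc-/- + MYC siCtrl cells.

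Csf1 and Cxcl1 went opposite ways with the 2 siRNAs. Csf1 read 14.18, 14.08 and 14.12 with siCtrl, 13.92, 13.95 and 13.93 with siAHR-2 (log2FC −0.19, limma adjusted p = 0.00693) and 14.55, 14.62 and 14.52 with siAHR-5 (log2FC 0.44, adjusted p = 8.38e-04). Cxcl1 read 11.61, 11.75 and 11.70 with siCtrl, 11.27, 11.33 and 11.11 with siAHR-2 (log2FC −0.45, adjusted p = 0.00686) and between 11.93 and 12.06 with siAHR-5 (log2FC 0.31, adjusted p = 0.00683). For both genes the 3 groups were fully apart, with the control in the middle.

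Set directly against each other, siAHR-5 gave higher values than siAHR-2 past the cutoffs for 3 of the 10 genes, against 2.18% of all genes in either direction: Ccl2 by 0.79 (limma adjusted p = 4.94e-04), Cxcl1 by 0.76 (adjusted p = 7.31e-04) and Csf1 by 0.63 (adjusted p = 1.08e-04) on the log2 scale. Without the fold cutoff, at an adjusted p of at most 0.05, the number was 4, the fourth being Cx3cl1, which was lower with siAHR-5 (−0.21, adjusted p = 0.0478), against 39.1% of all genes. The call on Cx3cl1 was lost in each of the 6 fits that left out 1 library (adjusted p from 0.0546 to 0.137) and without the mean-variance trend (adjusted p = 0.0564). At that adjusted p, 1 of the 10 was lower and 7 were higher with all 18 libraries in one fit. Among genes with a mean of at least 5, 1 was lower and 6 were higher. Ahr itself differed by −0.11 between the siRNAs, with a 95% confidence interval from −0.25 to 0.04.

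In the main fit, Lif and Il6 did not pass either test with either siRNA. Among genes with a mean of at least 5, the members higher with siAHR-5 at an adjusted p of at most 0.05 numbered 8, against 6 in the main fit. Lif read 9.22, 8.88 and 9.10 with siAHR-2, a log2FC of −0.09 with a 95% confidence interval from −0.34 to 0.15. It read 9.26, 9.35 and 9.44 with siAHR-5, a log2FC of 0.19 with an interval from 0.02 to 0.36 (limma adjusted p = 0.0779). In the larger set the order of Lif from the lowest group mean was therefore myc-/- (9.05), siAHR-2 (9.07), siCtrl (9.16) and siAHR-5 (9.35). The tests of Lif between siCtrl and each of the other groups did not pass in the main fit. Il6 read 7.34, 7.40 and 6.98 with siAHR-2 and 7.12, 7.08 and 7.09 with siAHR-5, a log2FC of 0.21 (interval from −0.12 to 0.54) and 0.07 (interval from −0.09 to 0.24), and the latter was −0.08 after quantile normalization. Of the remaining genes, Ccl20 had a log2FC of −0.02 (interval from −0.18 to 0.15) and 0.27 (from 0.02 to 0.52), and Ccl7 of 0.17 (from 0.01 to 0.34) and 0.39 (from 0.29 to 0.48, adjusted p = 0.00106).

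**Figure D3:**
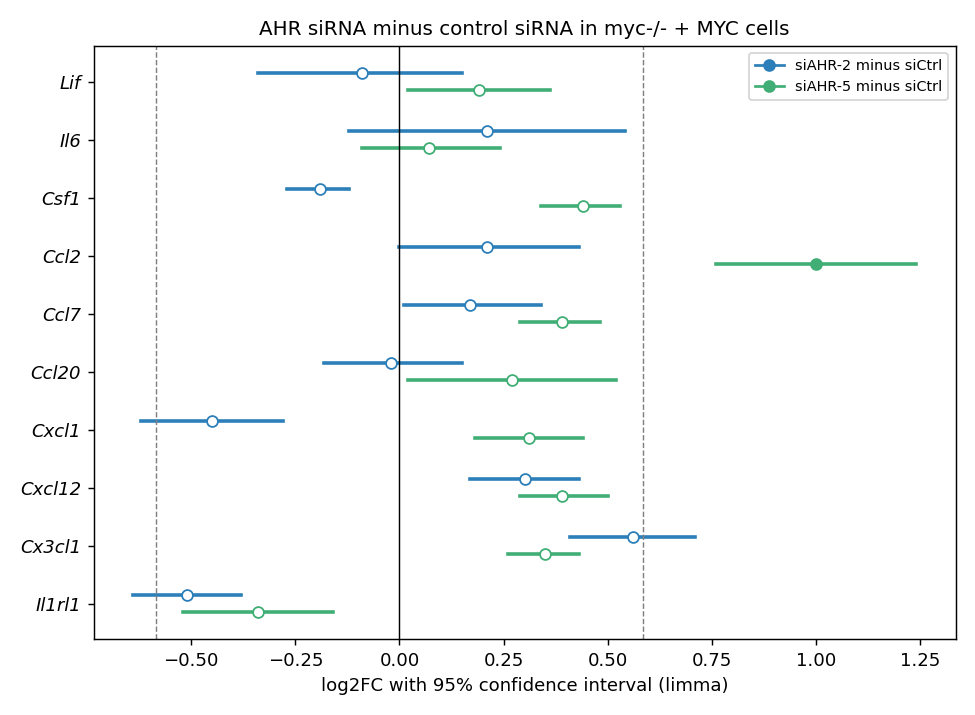
Log2FC of siAHR-2 (blue) and siAHR-5 (green) minus siCtrl in myc-/- + MYC cells for the 10 genes (points) with the 95% confidence interval (bars). The only filled point, which marks a gene past both cutoffs, is Ccl2 with siAHR-5 at 1.00, and the points of Csf1 and Cxcl1 lie on opposite sides of 0 for the 2 siRNAs.

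Among receptors and ligands of the gp130 family the changes were mixed, and pairs of values are given for the smaller and then the larger set. Of the 13 genes reported here, 3 fell in the smaller set and 4 in the larger, against 14.3% and 14.7% of all genes. Others lay higher in the smaller set without reaching the fold cutoff, such as the receptor gene Il11ra1 (0.54) and the ligand gene Ctf1 (0.53). In the larger set, Il11ra1 went from between 12.19 and 12.28 in myc-/- cells to between 12.34 and 12.49 in myc-/- + MYC siCtrl cells. Ctf1 went from between 10.37 and 10.62 to between 10.25 and 10.37. The ligand gene Clcf1 (−0.43 in the smaller set) went from between 11.38 and 11.43 to between 9.95 and 10.04 in the larger set. Past the cutoffs 0 of the 13 rose in either set, where 12.5% and 10.8% of all genes rose. After quantile normalization 1 rose in the smaller set. The median log2FC of the list was −0.3 and −0.19. Osmr, the oncostatin M receptor (log2FC −1.95 and −1.62), and Il6st, the shared gp130 chain (log2FC −0.77 and −1.02), fell in both. Il6r, the IL-6 binding chain, had a log2FC of −0.94, which passed, and of −0.57, which did not but was −0.61 and passed without replicate 1 of myc-/- + MYC siCtrl. Lifr, the LIF receptor, had a log2FC of −0.38 and −0.73 and passed in neither set. Its adjusted p in the larger set was 0.0396 by limma. It passed there without replicate 2 of myc-/- (log2FC −1.02, adjusted p = 7.29e-05), with all 18 libraries in one fit (adjusted p = 8.36e-05) and among genes with a mean of at least 5 (adjusted p = 0.00954).

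Downstream of these receptors, 8 of 17 JAK-STAT genes fell and 1 rose in the smaller set (median log2FC −0.57), and 5 fell and 0 rose in the larger set (median −0.06), where 1 rose under either other scaling. Of all genes, 14.3% fell and 12.5% rose in the smaller set, and 14.7% fell and 10.8% rose in the larger set. Those that fell in both include Cish, a feedback inhibitor induced by STAT5 (log2FC −1.98 and −2.73), the kinase gene Jak2 (log2FC −1.26 and −1.57) and Socs5, another feedback inhibitor (log2FC −1.0 and −0.70). Socs3, the gp130 feedback inhibitor, had a log2FC of −0.37, which did not pass, and of −0.72, which did, and Stat3 itself had a log2FC of 0.07 and −0.37 and did not pass.

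NF-kB and C/EBP regulators, through which inflammatory signals reach many of these genes, were lower with MYC in most cases. In each set 9 of 13 fell and 0 rose, with a median log2FC of −0.73 in the smaller set and −0.94 in the larger set, where 14.3% and 14.7% of all genes fell and 12.5% and 10.8% rose. Of the 13, 7 fell in both sets, as 8.91% of all genes did. These 7 include Nfkbie, an inhibitor of NF-kB that NF-kB itself induces (log2FC −2.21 and −2.01), Cebpb, a transcription factor of the Il6 gene (log2FC −1.85 and −1.67), and Nfkbia, the classical inhibitor IkB-alpha (log2FC −1.21 and −1.60). Those that fell thus include both activators and inhibitors of the pathway. With the AHR siRNAs 0 of the 13 passed the cutoffs in either comparison, where 0.470% and 2.32% of all genes did, so that few or none would pass at the rate of all genes.

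**Figure D4:**
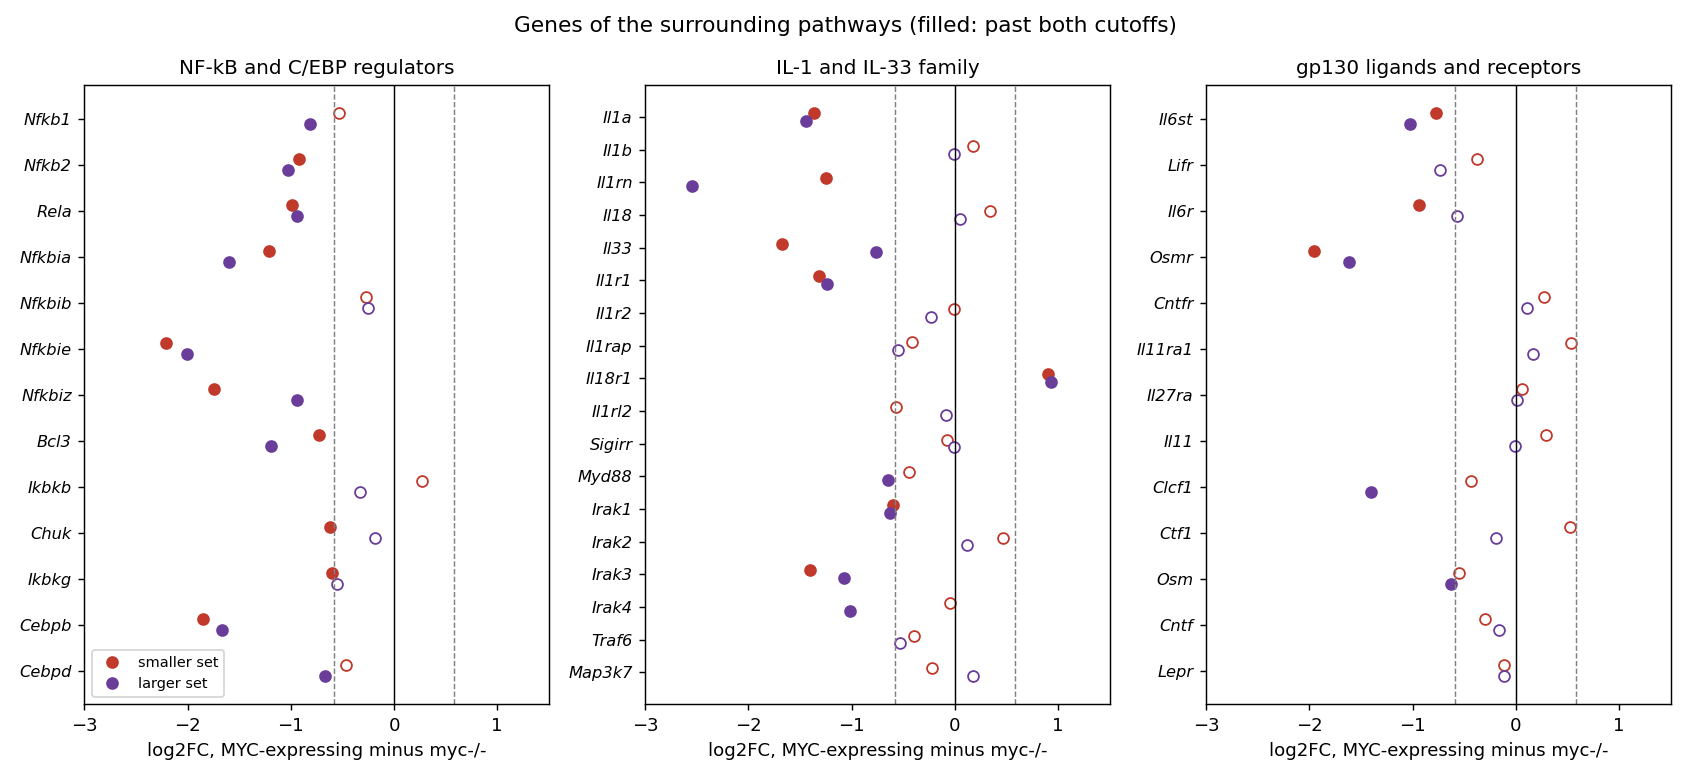
Log2FC of MYC-expressing minus myc-/- cells for genes of 3 lists, that of gp130 in part, in the smaller set (red) and the larger set (purple), with filled points for genes past both cutoffs and dashed lines at the 1.5-fold cutoff in either direction. No point on the NF-kB and C/EBP list is filled to the right of 0, while Il18r1 on the IL-1 list is filled there in both sets.

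In the IL-1 and IL-33 family, 6 of 18 genes fell and 1 rose in the smaller set, and 8 fell and 1 rose in the larger set, with medians of −0.41 and −0.54, against 14.3% and 14.7% of all genes lower and 12.5% and 10.8% higher. Among those that fell in both were Il1rn, the secreted IL-1 receptor antagonist (log2FC −1.25 and −2.55), Il1a, the ligand IL-1 alpha (log2FC −1.37 and −1.44), and the receptor gene Il1r1 (log2FC −1.32 and −1.24). An agonist, its antagonist and their receptor were therefore all lower. In the myc-/- + MYC siCtrl cultures Il1a read between 6.24 and 6.25, near its lowest value of 6.23, which limits the decrease that can be measured there. Of the other colony stimulating and haematopoietic factors, 2 of 11 fell and 2 rose in the smaller set and 0 fell and 3 rose in the larger set. The counts of the smaller set are near the same shares of all genes. Il15, a lymphocyte growth factor, rose in both (log2FC 0.86 and 0.64). Csf1r, the receptor of CSF1 and itself a macrophage gene, had a log2FC of −0.31 and −0.36 and did not pass.

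Of 23 chemokine receptors 9 were in the table, and 1 fell and 1 rose in the smaller set and 2 fell and 1 rose in the larger set, which is near the shares of all genes (14.3% lower and 12.5% higher, and 14.7% lower and 10.8% higher). The gene that fell in both was Ackr3, a scavenging receptor of CXCL12 (log2FC −1.5 and −2.72). It read between 6.59 and 6.61 in the myc-/- + MYC siCtrl cultures, near its lowest value of 6.58, which limits the decrease that can be measured there. Ccr2, Ccr6, Cxcr2, Cxcr4 and Cx3cr1, the signalling receptors of the members, were not analysed here. Among proteases that cut chemokines, 4 of 6 fell in each set, against 14.3% and 14.7% of all genes. They include Mmp2 (log2FC −4.05 and −4.83), Mmp9 (−3.12 and −3.91) and Dpp4 (−1.60 and −3.40), which trims the first residues of CXCL12. Among 8 regulators of cytokine mRNA decay, 3 fell in the smaller set and 1 in the larger set, the latter near the 14.7% of all genes that fell there. That one was Zc3h12a, an RNase that degrades Il6 mRNA, which fell in both (log2FC −2.01 and −1.83).

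Across the 18 libraries, after the mean of each set was subtracted, Lif was the least like the other members. Its Pearson r with the other 9 genes lay between 0.267 and 0.594, whereas the 36 pairs among those 9 had an r between 0.875 and 0.995. The libraries share their groups and sets, so these values hold the group differences given above and are a description. The 5 genes most like Lif among 10422 with a mean of at least 5 in each set were Fcgbp (r = 0.940), Ptprv (0.938), Hyal1 (0.938), Calb2 (0.937) and Upk1b (0.934).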

How the data were processed

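Poly-A RNA was sequenced from 18 cultures of Rat1-derived fibroblasts in 6 groups of 3, as the labels give them. Per the submitters' notes and the methods, the authors aligned reads to rn6 with HISAT2 2.1.0, removed genes with under 10 total reads and normalized with DESeq2. The read counter and annotation are not given in the sources used here. The authors deposited values on a log2 scale for 13188 genes. Those values when unlogged add up to between 86.3 and 161 times what CPM values would in any library, so they are not log CPM as their label says. The transformation and depth are unknown, no counting interval can be given, and a possible shrinkage of low genes' changes on this scale was not tested. Value columns without a sample numbered 0, and 0 pairs of libraries were identical.

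Groups were compared with limma 3.58.1 (lmFit, then eBayes with its trend option, in R 4.3.3) on the deposited log2 values within a set, with Benjamini-Hochberg adjustment over all 13188 genes and no filter. The 95% confidence intervals come from the same fits. The members and the lists of related genes were chosen with earlier results of these data known. Besides the members, up to 3 genes of a list were named by the largest mean change past the cutoffs in both MYC comparisons, or with both siRNAs, and receptor or ligand partners were named whatever their result. Other genes named were chosen after their values were seen. Alternatives were an FDR of 0.05 with no fold cutoff, all 18 libraries in one fit, no trend, quantile normalization, median centring, only genes with a mean of 5 or more, the replicate number as a block, a pseudocount of 1 and each library left out. Promoters were read from RefSeq windows of 300 bases (GRCr8) with Python 3.11.15, and figures were drawn with matplotlib 3.10.9. Not every result on the lists is reported here.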

Additional observations from a re-analysis of the deposited data

Results flagged for a closer look

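A test of the difference between 2 effects set 8 results apart. Between the AHR siRNAs, values were higher with siAHR-5 than with siAHR-2 for Csf1 (0.63, limma adjusted p = 1.08e-04), Ccl2 (0.79, adjusted p = 4.94e-04) and Cxcl1 (0.76, adjusted p = 7.31e-04) on the log2 scale, with all 3 cultures of siAHR-5 above all 3 of siAHR-2. Both siRNAs lowered Ahr (log2FC −1.29 and −1.39). Between the sets, the MYC effect differed for Lif (1.07, adjusted p = 1.11e-05), Il6 (−1.01, adjusted p = 2.10e-05), Ccl2 (−0.63, adjusted p = 2.93e-04), Ccl20 (−1.37, adjusted p = 1.96e-07) and Cxcl12 (−1.27, adjusted p = 2.16e-11), given as the log2FC of the larger set minus that of the smaller set. For Lif the difference is between a decrease and no detectable change. For the other 4 it is between decreases of unequal size.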

How the results depend on the processing

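The 60 results of the 10 genes in the 6 comparisons were recomputed under 8 other settings, 480 values in all, of which 459 kept their direction and their side of the cutoffs, 15 passed where they had not, 3 no longer passed and 3 changed sign. The counts of members lower with MYC, 10 and 9, were the same under all 8 settings and with any library left out. On the NF-kB and C/EBP list, 8 or 9 of 13 genes fell and 0 rose under either scaling in both sets. Without the fold cutoff and at an adjusted p of at most 0.05, the members past it numbered 5 with siAHR-2, 7 with siAHR-5 and 8 for the difference of the MYC effects. With all 18 libraries in one fit or only genes with a mean of at least 5, siAHR-2 gave 3 lower and 3 higher. Those numbers were 3 and 2 in the main fit. For siAHR-5 the same settings gave 1 lower and 7 or 8 higher, against 1 and 6 in the main fit. Same-numbered cultures did not deviate together (correlations from −0.256 to 0.242). With the replicate number as a block, the siAHR-5 count went from 1 to 0, since Ccl2 had the same log2FC of 1.00 with an adjusted p of 0.0103, and over all genes the siAHR-2 count went from 62 to 0. Ahr and Cxcl16 with siAHR-2 had an adjusted p of 0.0126 in that fit and no longer passed. The block changed no other count of members past the cutoffs, but at an adjusted p of at most 0.05 the count for siAHR-5 against siAHR-2 went from 4 to 5, with Ccl20 added. That count was 8 with all 18 libraries in one fit and 7 among genes with a mean of at least 5. With a library left out, the siAHR-2 count ranged from 0 to 1, and Ccl20 ranged from −0.0749 to 0.0271 with siAHR-2, while the Ccl7 difference between sets ranged from −0.0810 to 0.0586. Sign changes under scaling were those of Il6 with siAHR-5 (−0.0764, quantile normalization) and of the Ccl7 difference (0.406 with quantile normalization, 0.0843 with median centring). The cause was not tested. Depth is unknown, so what it limits cannot be given.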

Other observations

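Of 30 other chemokines on the list 20 were in the table, and 6 fell with MYC in the smaller set (Ccl5, Ccl9, Cxcl2, Cxcl10, Cxcl11 and Cxcl14), with 0 higher, while in the larger set no gene fell and 1, Cxcl10, rose. Of all genes, 14.3% fell and 12.5% rose in the smaller set, and 14.7% fell and 10.8% rose in the larger set. Of those 6, 3 varied little between cells with and without MYC in the larger set, with values between 4.16 and 4.24 for Ccl5, 4.32 and 4.63 for Ccl9 and 5.25 and 5.51 for Cxcl11. These values lay at or near the lowest of each gene (4.16, 4.32 and 5.25), which limits the decrease that can be measured there. Ccl3, Ccl4 and Ccl22 read 2.12, 0.19 and 1.28 in the larger set both with and without MYC. For genes that low, the absence of a decrease in the larger set cannot show that MYC had no effect. How much RNA such values stand for is unknown, and why these genes did not fall there was not tested. The following genes were chosen after their values were seen. Cxcl10, an interferon-induced lymphocyte attractant, read 14.05, 13.92 and 13.76 in myc-/- siCtrl cells and 12.87, 12.87 and 12.92 in myc-/- + MYC cells (log2FC −1.02, limma adjusted p = 2.23e-08). In the larger set it read 11.41, 11.31 and 11.16 in myc-/- cells and 12.65, 12.58 and 12.68 in myc-/- + MYC siCtrl cells (log2FC 1.34, adjusted p = 1.55e-05). The difference of the 2 effects was 2.36 (adjusted p = 4.06e-11). In the smaller set the group with the higher Cxcl10 was the one labelled as transfected and without MYC, and in the larger set it was the one labelled as transfected and with MYC. Whether the transfection had a part in this was not tested.

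Cxcl14 fell in the smaller set (log2FC −2.51), from between 8.96 and 9.16 to between 6.55 and 6.56, whereas in the larger set it lay between 2.67 and 2.78 in all 12 libraries, at or near its lowest value. Cxcl2, a neutrophil attractant like Cxcl1, fell in the smaller set (log2FC −1.88), and its log2FC of −0.47 in the larger set did not reach the fold cutoff. There it went from between 6.00 and 6.27 to between 5.60 and 5.70, at or near its lowest value, which limits the decrease that can be measured. Cxcl16, a membrane-bound chemokine, was the one chemokine on that list past the cutoffs with both AHR siRNAs. It read 12.21, 12.16 and 12.19 with siCtrl, 12.83, 12.84 and 12.83 with siAHR-2 and 12.88, 12.89 and 12.87 with siAHR-5, a log2FC of 0.64 (limma adjusted p = 2.37e-04) and 0.69 (adjusted p = 1.13e-04).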
